A study of Mus musculus with 12 samples.

Results

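The odorant receptor genes Olfr1208, Olfr292, Olfr51, Olfr1198, Olfr960 and Olfr1243 are described here across sorted cells of the mouse olfactory mucosa. These 6 of 1015 measured odorant receptors were chosen from these same arrays because their values were higher in odor-exposed than in air-exposed mice. That comparison was made in cells sorted as negative for the fluorescence of an activity reporter. Each receptor was read from its single probe set with 1 annotated symbol, among 19938 genes in all.

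The mice carried S100a5-tauGFP, in which green fluorescent protein is made with S100a5, a calcium-binding protein gene whose transcription in olfactory neurons follows their activity. There were 18 mice of both sexes, 7 to 12 weeks old, each housed for 40 hours in a chamber with clean air at 3.1 L per minute. From 26 hours on, odor mice received a citrus accord (5% in the series title) and vehicle mice filtered air, in pulses of 10 seconds every 20 minutes. Dissociated mucosa was pooled from 3 mice and sorted by fluorescence. The 4 groups of 3 arrays (Mouse Gene 1.0 ST) were odor GFP-positive, vehicle GFP-positive, odor GFP-negative and vehicle GFP-negative cells. Every mouse carried the reporter, no mouse without it is included, and what the accord contains is not stated in the labels. GFP-negative cells are not one cell type but all cells of the mucosa that fell outside the GFP gate.

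A mature olfactory sensory neuron transcribes a single odorant receptor gene from a single allele, out of a very large family. The receptor couples through the G protein subunit Gnal and the adenylyl cyclase Adcy3 to a cyclic nucleotide gated channel, and it also guides the axon to its glomerulus. A receptor's RNA in a pool of sorted cells therefore depends on how many neurons chose it and on how much each neuron makes, and arrays of pooled cells cannot tell these apart. In a sort on an activity reporter, a receptor's level on the GFP-positive side also depends on how many of its neurons glow. The labels name no ligand of these 6 receptors.

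All 6 are annotated as protein coding in RefSeq (GRCm38.p6). Olfr1208 (probe set 10484764), Olfr1198 (10484758) and Olfr1243 (10484828) lie on chromosome 2. Olfr292 (10554733) lies on chromosome 7, Olfr960 (10584496) on chromosome 9 and Olfr51 (10375793) on chromosome 11. RefSeq synonyms place Olfr1208 and Olfr1198 in the same sequence family, MOR225, whereas Olfr1243 is in MOR231, Olfr292 in MOR220, Olfr960 in MOR224 and Olfr51 in MOR129. Since receptors resemble each other in sequence, a probe may also have bound RNA of a paralogue, and each value carries that doubt.

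The stretches upstream of Olfr1208 and Olfr1198 are shown because these family mates were both among the 6 and lay close in pattern across the arrays, part of which the choice itself set. They come from RefSeq windows of 300 bases per gene (GRCm38.p6) and were singled out after their values had been seen. Within those windows the best local alignment of the pair covered 130 aligned bases with 98 identical (75.4%) and 1 gap. Among the other pairs of the 15 that the 6 receptors form, the longest such alignment was 38 bases. Capitals mark identical runs of 8 or more bases, and both lines read 5′ to 3′ on the minus strand, at chr2:88897754-88897884 and chr2:88746997-88747126.
Olfr1208: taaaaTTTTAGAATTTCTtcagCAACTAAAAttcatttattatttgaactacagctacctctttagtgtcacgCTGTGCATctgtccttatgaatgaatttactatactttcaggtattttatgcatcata
Olfr1198: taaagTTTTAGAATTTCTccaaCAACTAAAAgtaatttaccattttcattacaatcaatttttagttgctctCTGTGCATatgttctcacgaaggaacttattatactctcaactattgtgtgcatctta

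The Olfr1208 stretch ends 106 bases before the annotated gene start and the Olfr1198 stretch 111 bases before it. The annotated start of Olfr1198 is its ATG, as in 628 of 863 receptor windows (72.8%), so the distance to its transcription start is not known from this annotation. Against the windows of the other measured MOR225 genes that have one, 12 alignments with Olfr1208 or Olfr1198 reached at most 48 bases. The homeodomain core TAATTA, searched on both strands, occurred once in the Olfr1198 window and in none of the other 5, against 18.5% of receptor windows and 5.31% of all gene windows. The Ebf core CCCNNGGG, likewise searched on both strands, occurred in none of the 6, against 3.01% of receptor windows and 13.4% of all gene windows.

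The deposited array medians lay between 7.04 and 7.20 (log2) and lower quartiles between 5.65 and 5.83. The sort was checked on its own markers as GFP-positive minus GFP-negative cells, averaged over treatments. S100a5 itself was higher by 0.25 (log2, SE 0.07) in GFP-positive cells and Omp, which marks mature olfactory neurons, was higher by 0.32 (SE 0.06), both past limma's test (adjusted p 0.00619 and 0.000279). Group means of S100a5 were low, 6.05 to 6.35, between the lower quartiles and the medians of the arrays. At this level the size of the S100a5 difference is uncertain. All 12 leukocyte genes were lower in GFP-positive cells (median -4.05), as were all 5 sustentacular cell genes (median -1.76). Receptor medians were 7.50 to 7.73 in GFP-positive and 6.61 to 7.23 in GFP-negative arrays.

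Olfr1208 had the clearest separation of groups. In GFP-positive cells it stood at 5.34, 5.73 and 5.70 (log2) in odor mice and at 5.76, 5.87 and 6.04 in vehicle mice. In GFP-negative cells the values were 7.43, 7.80 and 7.50 in odor mice, against 6.93, 6.66 and 6.26 in vehicle mice. No 2 of the 4 groups overlapped, and the order ran from odor GFP-negative through vehicle GFP-negative and vehicle GFP-positive to odor GFP-positive cells. The 3 odor GFP-positive values lay below the lower quartile of their arrays. The means in GFP-negative cells were 7.58 ± 0.20 and 6.62 ± 0.33 in odor and vehicle mice (SD, n = 3 arrays each). They lay 0.96 or 1.94-fold apart, a value that served to choose the gene.

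Olfr1198, the MOR225 mate, kept the same order of fractions at lower values. It was 3.98, 4.12 and 3.98 (log2) in odor GFP-positive and 4.70, 3.79 and 3.85 in vehicle GFP-positive cells, which overlapped. In GFP-negative cells it was 5.70, 5.71 and 6.31 in odor mice, against 5.34, 4.77 and 4.81 in vehicle mice. GFP-negative groups lay above both GFP-positive groups and apart from each other. The difference of 0.93 between odor and vehicle GFP-negative cells was of the kind the choice rested on. All 6 GFP-positive values of Olfr1198 and 5 of its 6 GFP-negative values lay below the lower quartile of their array.

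Olfr292 was 4.66, 4.65 and 4.90 in odor GFP-positive and 5.42, 4.90 and 5.22 in vehicle GFP-positive cells. Its GFP-negative values were 6.32, 6.19 and 6.29 in odor mice, against 5.01, 5.37 and 5.76 in vehicle mice, 6.26 ± 0.07 against 5.38 ± 0.38 (SD, n = 3 each). Odor GFP-negative arrays thus lay above all other groups, while vehicle GFP-negative and vehicle GFP-positive arrays overlapped. The 3 groups other than odor GFP-negative cells lay below the lower quartile of their arrays.

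Olfr51 and Olfr960 ran the other way in the sort. Olfr51 was 7.08, 6.83 and 6.75 in odor GFP-positive and 6.68, 7.51 and 7.19 in vehicle GFP-positive cells. It was 6.37, 5.76 and 6.29 in odor GFP-negative cells, against 5.25, 5.27 and 5.48 in vehicle GFP-negative cells. The GFP-positive groups overlapped each other and lay above both GFP-negative groups, and the 3 vehicle GFP-negative values lay below the lower quartile of their arrays. Another probe set, annotated to Olfr51 and its neighbours Olfr1377 and Olfr1378 together, averaged 7.66 ± 0.14 in odor and 7.38 ± 0.07 in vehicle GFP-negative cells (SD, n = 3), a smaller gap in the same direction. In GFP-positive cells that probe set averaged 8.08 ± 0.04 in odor and 8.17 ± 0.16 in vehicle mice (SD, n = 3). Olfr960 was 7.45, 7.23 and 7.77 in odor GFP-positive and 7.56, 7.65 and 7.72 in vehicle GFP-positive cells, which overlapped. In GFP-negative cells all 3 odor arrays gave 6.96, and the vehicle arrays gave 6.48, 6.66 and 6.05.

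Olfr1243 was nearly level in 3 groups. It was 6.50, 6.18 and 6.35 in odor GFP-positive cells, 6.68, 6.28 and 6.44 in vehicle GFP-positive cells and 6.41, 6.26 and 6.33 in vehicle GFP-negative cells, all overlapping. In odor GFP-negative cells replicates 2 and 4 stood at 7.53 and 7.36 and replicate 3 at 6.48. The lowest odor value there was only 0.07 above the highest vehicle GFP-negative value, and replicate 3 lay within the range of the vehicle GFP-positive arrays. The difference between odor and vehicle GFP-negative cells was 0.79, and it was 1.11 without odor replicate 3.

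**Figure D1:**
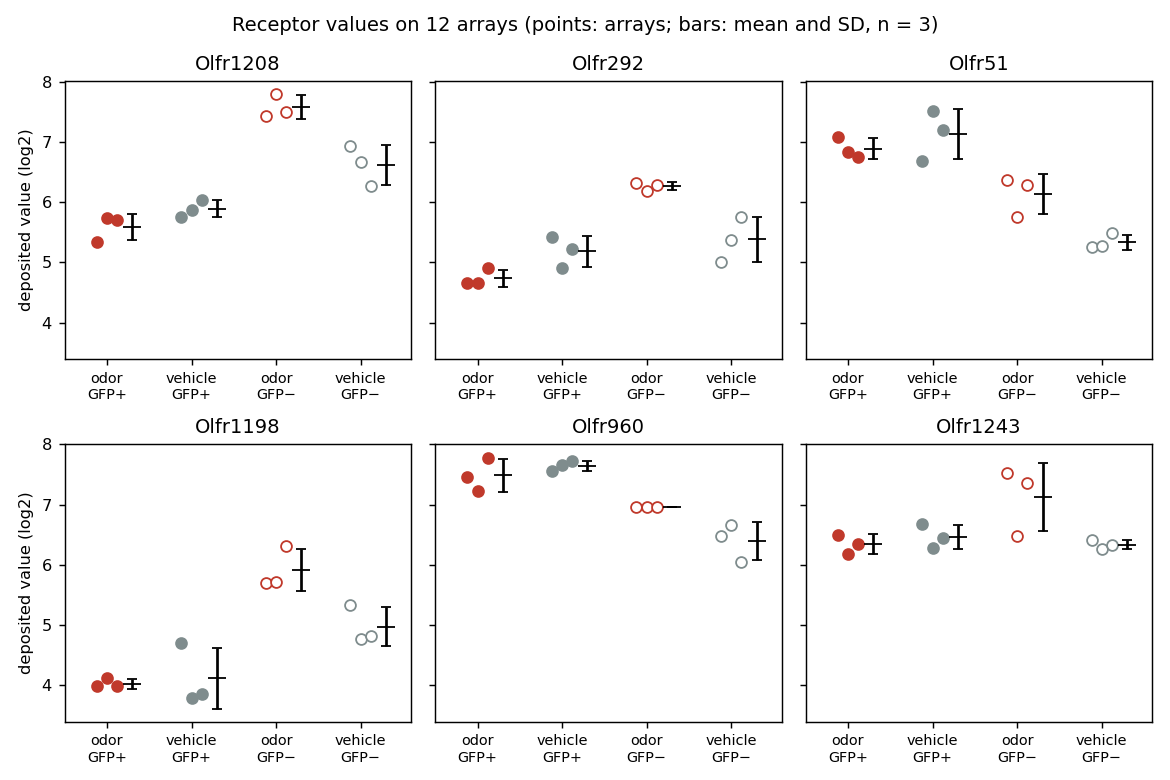
Deposited log2 value (vertical axis) of each receptor on the 12 arrays in 4 groups, odor in red and vehicle in grey, GFP-positive filled and GFP-negative open; bars give the mean and SD of 3 arrays. Olfr1208 stands highest in odor GFP-negative cells at 7.43 to 7.80, whereas Olfr51 and Olfr960 stand higher in GFP-positive cells.

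In the choosing comparison, odor minus vehicle in GFP-negative cells, the 6 receptors differed by 0.56 to 0.96 with a median of 0.85, against 0.04 over all receptors and -0.01 over all genes. No gene passed limma's test there at an adjusted p under 0.05 (0 of 19938, 0%), and 1301 genes had an unadjusted p under 0.05. The odor and vehicle arrays did not overlap for any of the 6, as for 2.79% of all genes and 2.86% of receptors, a count that the choice itself set. By moderated t the 6 ranked 1 to 5 and 7 among 1015 receptors. Olfr894, at rank 6, was higher by 0.74 (SE 0.20) and is not among them. Just inside stood Olfr1243 at 0.79 (SE 0.21), and just outside, at rank 8, Olfr1137 at 0.57 (SE 0.16).

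By size of the difference 21 receptors outside the 6 stood above Olfr960, which ranked 27 at 0.56, and the next below it was Olfr1459 at 0.55. The highest of these was Olfr178 at 1.11 (SE 0.47), whose odor values of 6.77, 5.66 and 5.28 overlapped vehicle values of 5.85, 4.41 and 4.13. Olfr1020 and Olfr1154 differed by 0.93 (SE 0.34) and 0.82 (SE 0.30). These 3 standard errors were larger than that of any of the 6, the widest of which was 0.24 for Olfr1198.

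Markers of other cells were set beside these differences. The mean of 12 leukocyte genes was 10.99, 11.34 and 11.43 (log2) in odor arrays and 10.93, 11.02 and 11.16 in vehicle arrays, with 11 of 12 genes above 0 in odor minus vehicle and none past the test. The medians of odor minus vehicle GFP-negative cells were -0.05 for sustentacular, 0.03 for horizontal basal and 0.01 for fibroblast genes. The receptor median was 7.23, 6.76 and 6.73 in odor arrays and 7.00, 7.00 and 6.61 in vehicle arrays. With each array's receptor median subtracted, odor and vehicle GFP-negative arrays still did not overlap for Olfr1208, Olfr51, Olfr1198 and Olfr960, but did for Olfr292 and Olfr1243. The median difference of the 6 was then 0.81. The part that cell content has in these differences was not tested beyond this.

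The comparison of odor with vehicle mice in GFP-positive cells is a separate contrast from the one that chose the genes. The GFP-positive arrays still entered that choice through the spread pooled over the 4 groups, so the standard errors and intervals of these genes may be somewhat too small. None of the 6 was called (0 of 6), and 1 gene of 19938 was (0.00502%). All 6 had a difference below 0, with a median of -0.20, as did 633 of 1015 receptors (62.4%, median -0.05) and 9479 of all genes (47.5%). Olfr292 was 4.74 ± 0.14 in odor mice, against 5.18 ± 0.26 in vehicle mice (SD, n = 3 arrays each). It differed by -0.44 (SE 0.17, 95% interval -0.81 to -0.08) with an adjusted p of 1 in limma. Olfr1208 was 5.59 ± 0.22 in odor and 5.89 ± 0.14 in vehicle mice, a difference of -0.30 (SE 0.16, interval -0.66 to 0.05) with the same adjusted p.

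For Olfr292 and Olfr1208 odor arrays lay below vehicle arrays without overlap, by margins of 0.03 for Olfr1208 and 0.01 for Olfr292. Such separation was met by 3.45% of genes and 3.35% of receptors. Olfr51 differed by -0.24 (interval -0.67 to 0.19), Olfr960 by -0.16 (-0.49 to 0.17), Olfr1243 by -0.12 (-0.59 to 0.34) and Olfr1198 by -0.09 (-0.61 to 0.43). For none of these 4 did odor and vehicle GFP-positive arrays separate.

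**Figure D2:**
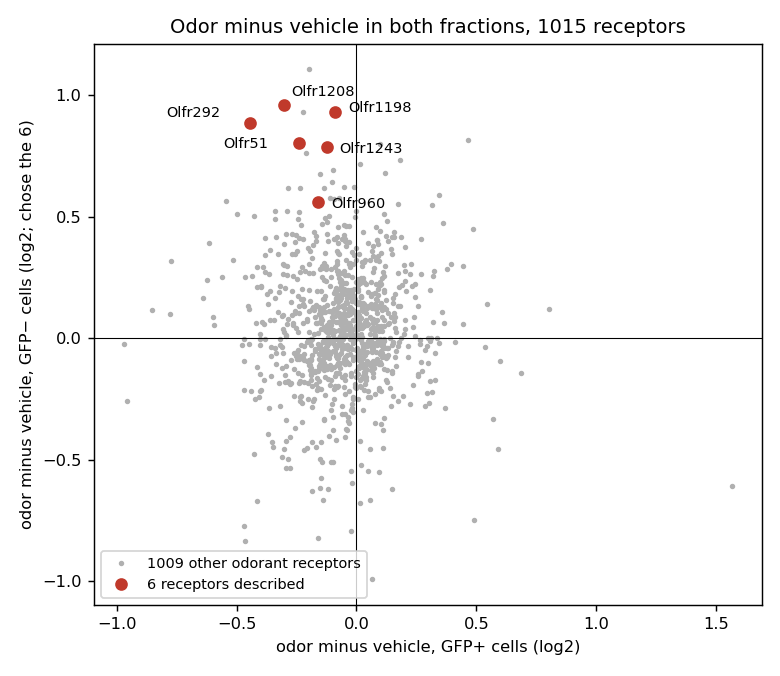
Odor minus vehicle (log2) in GFP-positive cells (horizontal) and in GFP-negative cells (vertical) for 1015 odorant receptors, the 6 described in red and 1009 others in grey. The 6 lie high on the vertical axis because they were chosen on it, at 0.56 to 0.96, and all lie left of 0, between -0.44 and -0.09.

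The contrast between the sorted fractions, GFP-positive minus GFP-negative, asks on which side of the GFP gate a receptor's RNA lies. Averaged over both treatments, this contrast is orthogonal to the one that chose the genes. It called 5 of the 6 in limma, 2 higher and 3 lower in GFP-positive cells. Over all genes 38.7% were called higher and 21.2% lower, and over receptors 66.4% and 14.3%. The median receptor was higher by 0.71, and the median of the 6 was -0.59. The limit on standard errors given above holds here too. The fractions also differed in Omp and in leukocyte genes, as given above. What part cell content has in this contrast was not tested.

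Olfr1198 and Olfr1208 were lower in GFP-positive cells by nearly the same amount, -1.37 (SE 0.17, adjusted p 1.52e-05) and -1.36 (SE 0.12, adjusted p 6.65e-07), which is 2.58-fold and 2.56-fold less. Olfr292 was lower by a difference of -0.86 (SE 0.12, adjusted p 4.03e-05), or 1.82-fold less. Olfr51 was higher by 1.27 (SE 0.14, adjusted p 6.58e-06), or 2.41-fold, and Olfr960 by 0.88 (SE 0.11, adjusted p 1.25e-05), or 1.85-fold. The probe set that Olfr51 shares with Olfr1377 and Olfr1378 had a smaller sort difference in the same direction. Olfr1243 differed by -0.33 (SE 0.15) and did not pass (adjusted p 0.0802). Most receptors were called the other way from Olfr1208, Olfr1198 and Olfr292. Olfr1198 lay below the lower quartile on 11 of 12 arrays and Olfr292 on 9 of 12, so the size of their folds is uncertain, and both drop out when low values are left out. Olfr1208 lay below it on its 3 odor GFP-positive arrays, so the size of its fold is uncertain too.

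Relative to the receptor median of each array, the calls of Olfr1208 (-2.12), Olfr1198 (-2.13), Olfr292 (-1.63) and Olfr51 (0.50) held in limma. That of Olfr960 ended (0.12, adjusted p 0.356 in limma), and Olfr1243 was then called lower (-1.09, adjusted p 4.93e-06). That run called 17852 of 19938 genes, against 11945 in the main fit, so a call in it is not particular to these receptors. Olfr1243 was also called lower in limma without replicate 3 of the odor GFP-negative arrays (-0.49, adjusted p 0.000421). The groups of that fit are no longer balanced, so its contrast is not orthogonal to the choice, and it gives no separate support. No other run with 1 array left out called Olfr1243, and without replicate 2 of those arrays the difference was -0.23 (adjusted p 0.182).

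**Figure D3:**
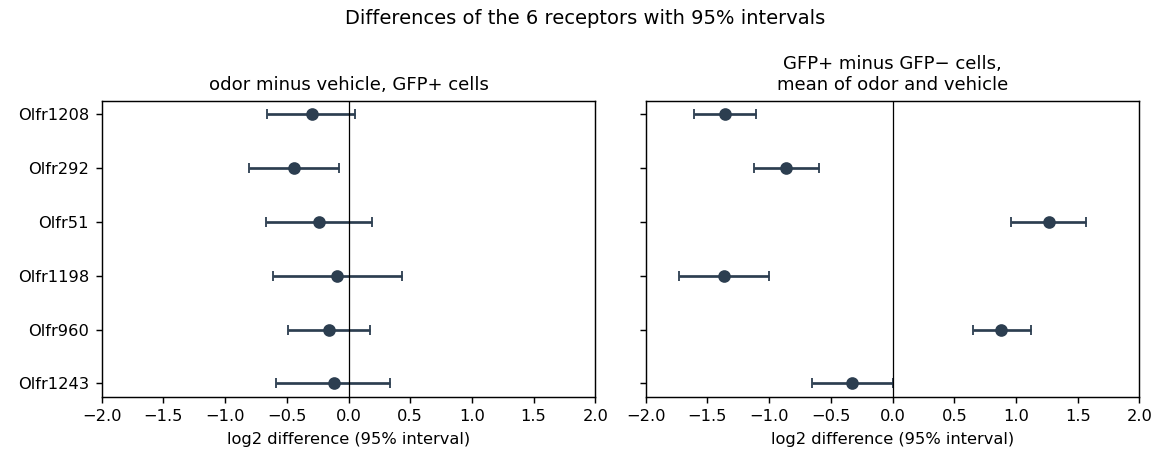
Log2 difference (horizontal axis, points) with 95% intervals (bars) of the 6 receptors, for odor minus vehicle in GFP-positive cells (left) and for GFP-positive minus GFP-negative cells averaged over treatments (right). All 6 points on the left lie below 0 and were not called, whereas those on the right split, from -1.37 for Olfr1198 to 1.27 for Olfr51.

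Within each treatment the sort difference shares arrays with the choice and is given as a description. In odor mice GFP-positive minus GFP-negative cells was -1.99 for Olfr1208, -1.88 for Olfr1198, -1.53 for Olfr292 and -0.78 for Olfr1243. In vehicle mice it was -0.73, -0.86, -0.20 and 0.13 for the same genes in the same order. Olfr51 had 0.75 in odor and 1.79 in vehicle mice, and Olfr960 had 0.52 in odor and 1.24 in vehicle mice. Each receptor thus leaned further to the GFP-negative side in odor mice, as their choice favours.

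Around Olfr1208 and Olfr1198 the nearest genes differed from them in the sort, whereas around Olfr51 and Olfr960 most had the same direction. Those around Olfr292 split, and most around Olfr1243 lay on the other side of 0 from it, although its own difference did not pass. Over all receptors 66.4% were called higher in GFP-positive cells and 14.3% lower, so neighbours on the higher side were the common case. The 3 nearest measured receptor genes on each side of Olfr1208 and of Olfr1198 in RefSeq order, 6 around each gene, were all called higher in GFP-positive cells. Those nearest to Olfr1208, Olfr1206 and Olfr1209, were higher by 0.98 (SE 0.14) and 2.15 (SE 0.21). Those nearest to Olfr1198, Olfr1195 and Olfr1199, were higher by 2.59 (SE 0.20) and 1.13 (SE 0.19). In odor minus vehicle GFP-negative cells the neighbours of Olfr1208 differed by -0.38 to 0.27 and those of Olfr1198 by -0.17 to 0.31. No gene at all was called there.

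Around Olfr292 the 3 receptors before it were lower in GFP-positive cells too, with Olfr293 next to it at -2.59 (SE 0.19), while the next 3 measured on the other side, which begin with Olfr520 and lie 13039.8 kb or more away, were higher. All 6 neighbours of Olfr960 were higher, with Olfr148 at 2.53 (SE 0.18) and Olfr961 at 1.47 (SE 0.11). Of the 6 around Olfr51, 1 of them an annotated pseudogene, 5 were called higher, with Olfr1377 at 0.91 (SE 0.13), although 3 of the 6 lie 1147.0 kb or more away. Olfr54 differed by 0.19 (SE 0.11) without passing. Around Olfr1243, 4 were called higher, with Olfr1242 at 1.17 (SE 0.15), and 1, Olfr1241, lower at -0.35 (SE 0.14), close to Olfr1243 itself. Olfr1245, next to Olfr1243, differed by 0.04 (SE 0.14) without passing.

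**Figure D4:**
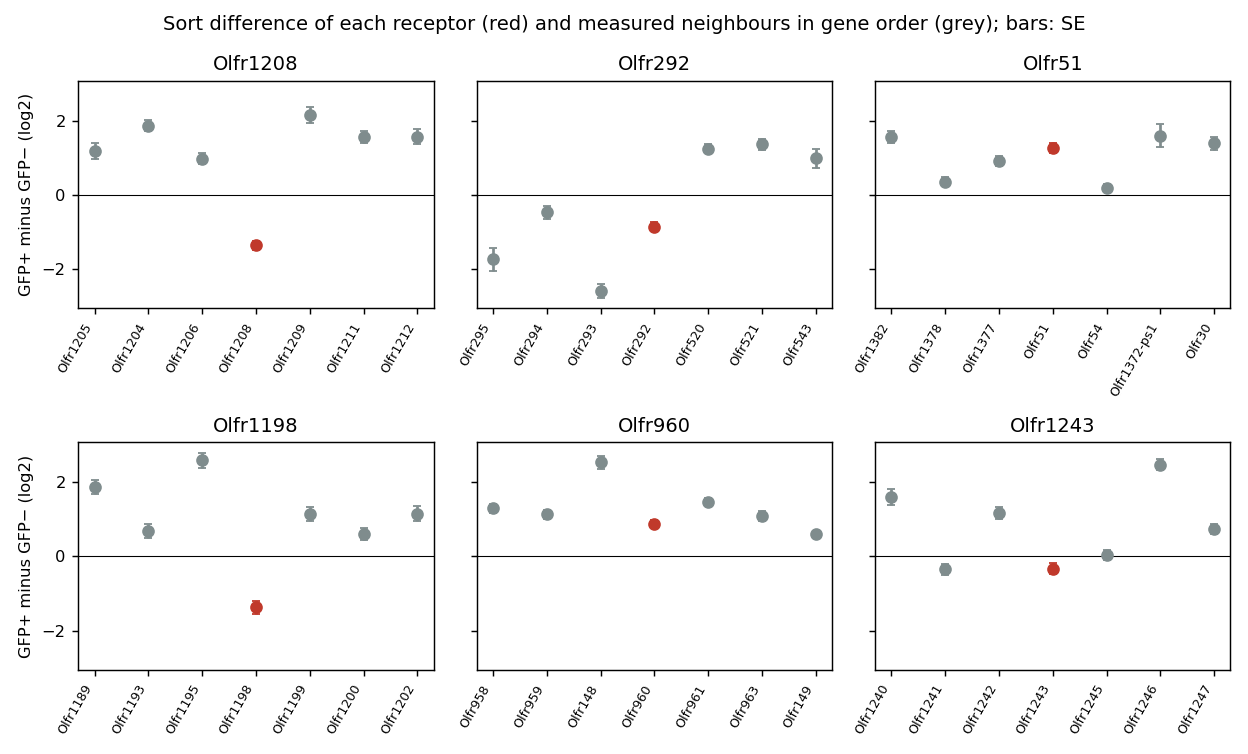
GFP-positive minus GFP-negative difference (log2, vertical axis, averaged over treatments, bars SE) of each receptor in red and of its 3 nearest measured receptors on each side in grey, in gene order. Olfr1208 at -1.36 and Olfr1198 at -1.37 lie below 0 among neighbours that all lie above it. Over all receptors 800 of 1015 lie above 0.

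The 7 other measured genes of the MOR225 family split in the sort, with 3 called higher and 2 lower in GFP-positive cells. The 2 called lower, like Olfr1208 and Olfr1198, were Olfr1178 at -3.03 (SE 0.17) and Olfr1184 at -0.80. In odor minus vehicle GFP-negative cells the 7 differed by -0.18 to 0.10, and since that comparison chose the 6 receptors, a lower value in family mates was to be met by the choice alone. All 9 other measured MOR224 genes were called higher in GFP-positive cells (median 1.13), as was their mate Olfr960. They include all 6 neighbours of Olfr960 given above, so the 2 observations are not separate. Of 12 other MOR231 genes, some of them neighbours of Olfr1243 given above, 10 were called higher and 1 lower in GFP-positive cells. Over all receptors 66.4% were called higher.

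Likeness of pattern was measured as the root mean square difference between values centred per gene over the 12 arrays. Between Olfr1208 and Olfr1198 it was 0.34 (log2), against a median of 1.16 between Olfr1208 and the 1009 receptors outside the 6. The 12 arrays include the GFP-negative arrays that chose both genes, so part of this likeness was set by the choice. Olfr51 and Olfr960 were 0.37 apart, and Olfr1208 and Olfr51 1.36. Outside the 6, the closest to Olfr1208 were Olfr305 at 0.33 and Olfr1384 at 0.36, and the closest to Olfr1198 were Olfr1384 at 0.34 and Olfr452 at 0.39. The closest to Olfr292 were Olfr770 at 0.28 and Olfr1110 at 0.31, and to Olfr1243 Olfr1355 at 0.23 and Olfr935 at 0.28. The closest to Olfr51 were Olfr904 at 0.24 and Olfr615 at 0.28, and to Olfr960 Olfr1229 at 0.14 and Olfr765 at 0.21. In the sort Olfr305 differed by -1.42 (SE 0.13), close to Olfr1208, whereas odor minus vehicle in its GFP-negative cells was 0.08 (SE 0.19).

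Genes of odor transduction and of receptor expression did not pass the test between odor and vehicle mice in either fraction. Nor did nearly any gene, with 0 of 19938 called in GFP-negative and 1 in GFP-positive cells. Such counts of 0 are therefore not particular to these lists. Of 16 transduction genes, which include Cnga3 and Gucy2d of the guanylyl cyclase D neurons, 0 were called in odor minus vehicle GFP-positive or GFP-negative cells, where the medians were -0.01 and -0.08. In the sort all but Cnga3 and Gucy2d, 14 of these 16, were called higher in GFP-positive cells, against 38.7% of all genes. Pde1c, a phosphodiesterase, was higher by 0.89 (SE 0.08), Ano2, the calcium-activated chloride channel, by 0.78 (SE 0.08) and Slc24a4, a calcium exchanger, by 0.76 (SE 0.08). Of 17 genes of receptor choice and trafficking, 14 were called higher and 2 lower in the sort, and 0 were called between treatments in either fraction. Emx2, a transcription factor gene of olfactory neurons, was higher by 0.79 (SE 0.10), and Rtp2, a receptor transporting protein gene, by 0.70 (SE 0.09). Lbr, an inner nuclear membrane protein gene, was lower by a difference of -1.86 (SE 0.09).

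Of 10 activity-dependent genes, 9 were higher and 1, Rasgrp4, lower in GFP-positive cells, and 0 were called between treatments. The largest differences were those of Epha5 at 1.36 (SE 0.10), Pcdh10 at 1.33 (SE 0.07) and Kirrel2 at 1.30 (SE 0.10), which encode an ephrin receptor, a protocadherin and an adhesion molecule of sensory axons. Of 6 immature neuron genes, 4 were called lower and 1, Dcx, was called higher. All 4 measured progenitor genes were lower (median -1.88). What part these other cells have in the sort differences of the 6 receptors was not tested.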

How the data were processed

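RNA of 12 sorted samples, each from 3 mice, was hybridised to Mouse Gene 1.0 ST arrays. The submitters' processing notes name Affymetrix Expression Console as the software behind the deposited log2 values. Which version, summarization and normalization were used is not stated. They were used as deposited. Of 35556 probe sets, 21789 had 1 annotated symbol, 1621 several and 12146 none in the platform annotation, and the probe set with the highest mean stood for each of 19938 genes. Odorant receptors were symbols of Olfr followed by digits, 1015 genes, with 11 pseudogene symbols left out.

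One linear model over the 4 groups was fitted to all genes in limma 3.58.1 (R 4.3.3) with Benjamini-Hochberg adjustment over all genes at 0.05. It was tested on simulated data. Odor minus vehicle in GFP-negative cells chose the receptors, so it gives no test of the 6. Its counts of called genes and its ranks are given as background and description. The members, gene lists and rules for named genes were chosen with earlier results of these data known. Genes named beside the 6 were the nearest receptors on each side, the 2 of most similar pattern, and up to 3 called genes of largest difference in each pathway list. Rasgrp4, Dcx, Cnga3, Gucy2d and the family mates were named after their values were seen. Protein identity was not used, and sequence families from RefSeq synonyms took its place after the values had been seen, as did the 3 neighbours a side. The number of arrays limits the precision.

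Both fractions of a pool come from the same mice, since 18 mice in samples of 3 make 6 pools. Deviations of the 2 fractions correlated at 0.07 to 0.25, and the pool as a random block (consensus correlation 0.11) changed no call of the 6. Nothing in the labels says how replicates of different pools were collected beyond this, so p-values measure the spread between these samples.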

Additional observations from a re-analysis of the deposited data

Results flagged for a closer look

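Olfr1208 and Olfr292 were flagged because their arrays separated in opposite directions in the 2 fractions, above vehicle in odor GFP-negative cells and below vehicle in odor GFP-positive cells. The first of these separations was set by the choice, and the second was met by 3.45% of genes and 3.35% of receptors. With each array's receptor median subtracted, odor and vehicle GFP-negative arrays overlapped for Olfr292 but not for Olfr1208. Odor minus vehicle in GFP-negative cells exceeded that in GFP-positive cells by 1.26 (log2) for Olfr1208 and by 1.33 for Olfr292. The other 4 receptors had 0.72 to 1.04. The separation in GFP-positive cells rests on margins of 0.03 for Olfr1208 and 0.01 for Olfr292. For both genes the 3 odor GFP-positive values lay below the lower quartile of their arrays. The difference between the fractions was not tested, because it holds the comparison on which both genes were chosen.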

How the results depend on the processing

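None of the 6 receptors was called in odor minus vehicle GFP-positive cells under any alternative run. The count of genes called there was 0 with cyclic loess, with only the groups of the comparison or with a replicate block by title number, and 0 to 1 with 1 array left out, being 0 without odor GFP-positive replicate 3 or 4 or vehicle GFP-positive replicate 1 or 4. Its difference turned to 0.17 for Olfr1198 and 0.15 for Olfr1243 with that replicate block, and to 0.20 for Olfr1198 without vehicle GFP-positive replicate 1 (range -0.25 to 0.20). In odor minus vehicle GFP-negative cells 0 to 15 genes were called with 1 array left out, 15 without odor GFP-negative replicate 2, 3 without replicate 3 and 1 without replicate 4. In the sort, dropping low values left 3 of the 6 and called 2, and leaving out 1 array called 5 to 6. Olfr1243 was called with a replicate block by title or code number (adjusted p 0.0165 and 0.0196) and with array weights (adjusted p 0.0243). The numbers are not known to pair odor with vehicle pools, whose same-numbered deviations correlated at -0.17 to 0.28 by title and -0.21 to 0.44 by code. The cause of these changes was not tested. The directions of Olfr1208, Olfr292, Olfr51 and Olfr960 held in the alternatives run for them, which for Olfr292 and Olfr51 do not include dropping low values.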
